A study of Bos taurus with 14 samples.

Results

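The 100 most abundant transcripts of bovine cumulus cells were the 100 rows with the highest arithmetic mean over 14 libraries, out of 38030 transcripts in the table. Levels were in TPM, transcripts per 1000000, which divides the reads assigned to a transcript by its length and then scales each library to the same total. The level itself therefore chose the members, and levels and ranks are given as a description with no test. All 100 members passed the filter on low values that was used for the tests, which kept 20488 transcripts that reached 1 TPM in 4 or more libraries. At the threshold, the transcripts ranked 98, 99 and 100 had means of 1510, 1509 and 1504 TPM, and the next 3 transcripts, which were left out, had 1467, 1416 and 1415 TPM.

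Cumulus cells, the layers of somatic cells attached to the oocyte, were taken from cattle (Bos taurus). The libraries were grouped by what the oocyte of each complex later did: 4 libraries came from cells around oocytes that failed to cleave (Cl-, replicates 1 to 4), 5 from cells around oocytes that cleaved but gave no blastocyst (Bl-, replicates 5 to 9) and 5 from cells around oocytes that became blastocysts (Bl+, replicates 10 to 14). Each library was made from pooled cells, with 10 cumulus-oocyte complexes to a pool as the design text is read here, so a value is a mean over complexes and the spread between complexes was not measured. No source used here gives the animals, their age and breed, or any treatment. Since the labels also do not tie the pools to separate animals or days, the spread that the tests use is that of the libraries and may be partly technical.

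Cumulus cells exchange small molecules with the oocyte through gap junctions and supply it with metabolites such as pyruvate. The most abundant mRNAs of an animal cell are usually those of housekeeping functions, such as ribosomal proteins, translation factors, cytoskeletal proteins and the proteins encoded by mitochondrial DNA, to which are added the products typical of the cell type. Mitochondrial DNA encodes subunits of respiratory chain complexes I, III and IV and of the ATP synthase, complex V. The genes of this DNA are transcribed as long precursors that are cut into mRNAs.

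No table used here pairs the transcript identifiers with genes, and 0 of them matched the RefSeq table of 37063 genes (assembly ARS-UCD2.0). Members are therefore named by their rank in mean TPM and their length in bases. One group could be recognised by length. A single run of consecutive rows held, as a set, the lengths of the 13 protein-coding genes of the mitochondrial chromosome in the RefSeq table, and 12 of these 13 transcripts were members. They are called here by the gene of equal length ("COX1-length"), a match by length and by place in the table, made after the lengths had been seen and not by identifier or sequence. The cell type label could not be checked against marker genes for the same lack of names.

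The libraries held about 28.6 to 39.8 M fragments (M, 1000000), read approximately from the smallest step between values, and in each library every member rested on at least 4391 fragments. Counting error was thus small beside the spread between libraries. Library Cl- replicate 4 lay farthest from the others over the members, with a mean distance of 0.328 (root mean square difference of log2(TPM + 1)), against 0.226 to 0.315 for the other libraries. Bl+ replicate 12 had the highest value of all libraries for 48 of 100 members, and the lowest value was in Bl- replicate 7 for 34 members and in Bl- replicate 5 for 19.

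Together the members held a large part of all transcript molecules as TPM counts them. Their share was 27.4% ± 0.81 in Cl- (SD, n = 4), 27.1% ± 1.14 in Bl- (n = 5) and 28.6% ± 0.80 in Bl+ (n = 5), with single libraries between 25.5% and 29.5%. Bl+ libraries ran from 27.6% to 29.5%, Bl- libraries from 25.5% to 28.5% and Cl- libraries from 26.4% to 28.4%, so the ranges of all 3 groups overlapped. Because the members were chosen for their level, no test was made of this share. In pooled cells, fewer cells of a kind and less RNA per cell cannot be told apart. The same members took 14.8% ± 0.57 of the fragments in Cl-, 14.6% ± 0.66 in Bl- and 15.5% ± 0.46 in Bl+, where the fragment share is TPM multiplied by effective length. The share of fragments was well below the share of molecules in every group.

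The levels were unevenly spread, with a steep decline over the first ranks and a slow one afterwards. The first transcript alone held 1.13% of TPM, the first 10 held 6.49%, the first 25 held 11.97% and the first 50 held 18.4%. The 3 highest means were 11340, 10049 and 6723 TPM, all of transcripts with mitochondrial lengths. They were followed by transcripts of 855, 1740, 1140, 3984 and 452 bases at 5971, 5346, 5226, 5190 and 5122 TPM, by the ND3-length transcript at 5115 TPM and by one of 516 bases at 4773 TPM. The ranges over libraries of the transcripts ranked 4 to 10 overlapped one another. Such ranges take no account of the order within a library, which was steadier for some pairs. Rank 4, for example, was above rank 10 in every library except Bl+ replicate 14, at 4457 against 5211 TPM.

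**Figure D1:**
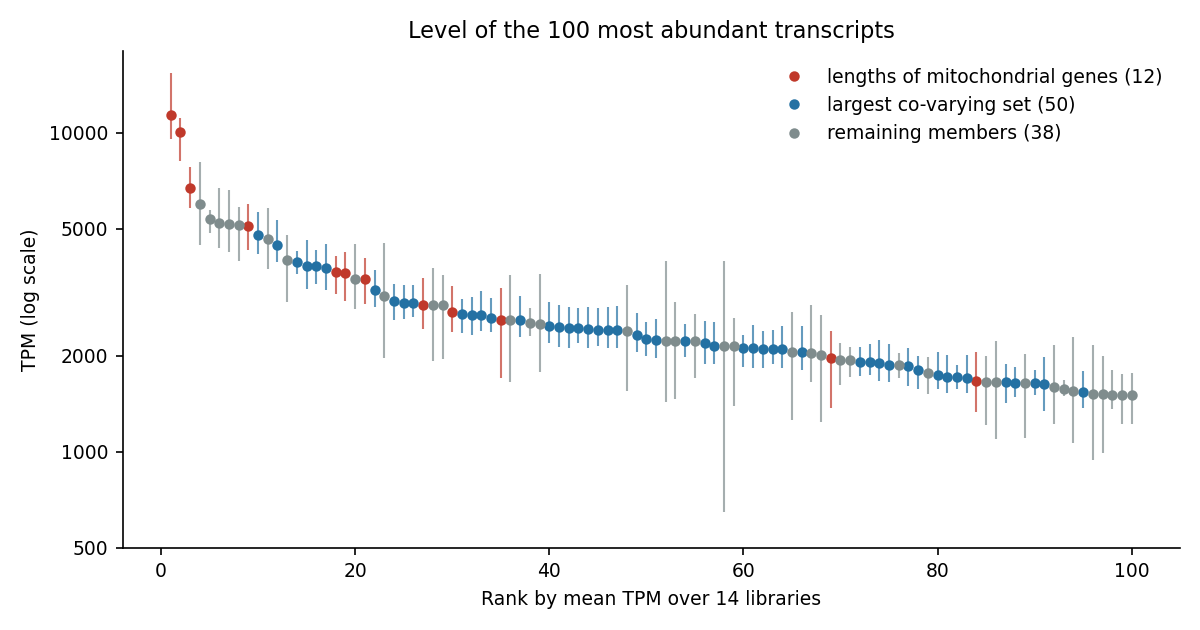
Mean TPM (log axis) of the 100 members against their rank, with vertical lines from the lowest to the highest of the 14 libraries. Red points are the 12 transcripts with mitochondrial lengths, blue points the largest set of co-varying members (50) and grey points the other 38. The level goes from 11340 TPM at rank 1 to 1504 TPM at rank 100, and the line at rank 58 is the longest, from 649 to 3958 TPM.

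Short transcripts made up most of the list. The median length of the members was 825 bases (292 to 8129), against 2177.5 bases for the 20488 transcripts that passed the filter and 2013 bases for all that were listed. Of the members, 62% were under 1000 bases and 18% under 500 bases, while 13.2% and 3.70% of the transcripts passing the filter were. Only 5% of the members were over 3000 bases, against 29.6% of those passing the filter. The median length was 684 bases for ranks 1 to 25, 602 for ranks 26 to 50, 782 for ranks 51 to 75, 1072 for ranks 76 to 100 and 1187.5 for the 100 transcripts ranked next. Within the members, too, the last 25 ranks held the longer transcripts.

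Length enters TPM as a divisor, and members at both ends of the length range stood at very different places by TPM and by fragments. The shortest member, 292 bases at rank 12, had a mean of 4446 TPM but stood at place 437 by fragments, with 0.0337% of them. The next shortest, the ND4L-length transcript of 297 bases, was at rank 35 in TPM and at place 834 by fragments. At the other end, the longest member, 8129 bases at rank 36 with 2590 TPM, took 1.22% of all fragments and was first by that measure. The next longest, 4431 bases at rank 94 with 1551 TPM, took 0.393% and stood at place 6. Of the 100 members, 46 were also among the first 100 transcripts by share of fragments.

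The membership depended little on which libraries were averaged. Each library's own 100 most abundant transcripts held between 91 members, in Cl- replicate 4, and 98 members, in Cl- replicate 1, Bl- replicate 6 and Bl+ replicate 13. In all, 81 members were among the first 100 of every one of the 14 libraries, and 125 transcripts were among the first 100 of at least 1 library, 25 of them not members. By group means, 100 members were in the first 100 of Cl-, 99 in that of Bl- and 96 in that of Bl+, and 95 were in all 3. The first 25 places were the more stable: 17 members stood there in all 14 libraries, and the median range of rank over the libraries was 9 places for ranks 1 to 25 and 28 places for ranks 76 to 100. The COX1-length transcript was first in 11 of 14 libraries.

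A few members moved far in rank. The widest range was that of the transcript of 1166 bases ranked 58, which went from place 15 to place 204. Next came the transcript of 2451 bases ranked 65, from place 25 to 120, and the transcript of 1842 bases ranked 96, from place 52 to 146. All 3 were over 1000 bases and belonged neither to the mitochondrial lengths nor to the largest set of co-varying members.

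The members varied less between libraries than most transcripts, and about as much as other abundant ones. The median coefficient of variation (CV, SD over mean of TPM over the 14 libraries) was 9.27% for the members, 19.7% for the transcripts passing the filter and 8.84% for the 1451 other transcripts with a mean of at least 100 TPM. Within groups, the median SD of log2(TPM + 1) was 0.12 for the members and 0.24 for the transcripts passing the filter. The lowest CV was that of the transcript ranked 93 (2526 bases), at 3.14%. Its values were 1535, 1579, 1562 and 1564 TPM in Cl-, 1520, 1581, 1493, 1638 and 1547 TPM in Bl-, and 1620, 1549, 1619, 1581 and 1678 TPM in Bl+. It was followed by the transcript ranked 90 (1029 bases), at 4.72%, and the one ranked 14 (477 bases), at 5.05%. All 3 of these stayed within a narrow band in every group.

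The highest CV was 50.0%, for the transcript ranked 58. Rank 52 (1052 bases) followed with 30.4% and rank 23 (2098 bases) with 24.5%. The longer members had the higher CV: the median CV was 16.0% for the 20 members over 1500 bases, 12.3% for the 50 above the median length and 8.59% for the 50 up to it. Of the 11 members with a CV over 20%, none had a mitochondrial length and none was in the large co-varying set.

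The 12 members with mitochondrial lengths held 5.67% ± 0.37 of TPM in Cl- (SD, n = 4), 5.46% ± 0.46 in Bl- (n = 5) and 5.63% ± 0.59 in Bl+ (n = 5). Single libraries lay between 5.27% and 6.17% in Cl-, between 4.95% and 6.21% in Bl- and between 4.96% and 6.24% in Bl+, so the groups covered nearly the same range. By mean TPM, the order of the subunits was COX1 and COX3 of cytochrome c oxidase (complex IV) at 11340 and 10049, ATP6 of the ATP synthase (complex V) at 6723, ND3 of complex I at 5115, COX2 at 3656, CYTB of complex III at 3640, and then ND1, ND6, ND4, ND4L, ND5 and ND2 of complex I at 3468, 2884, 2740, 2595, 1961 and 1666 TPM. The ATP8-length transcript, of 201 bases, was the one of the 13 outside the list, at rank 205 with 688 TPM. Neighbours in this order mostly overlapped: the ranges over the 14 libraries were apart only between COX3 and ATP6, between ND3 and COX2, and between ND2 and ATP8. Within single libraries the order was steadier. ATP6 stood above ND3, ND1 above ND6 and ND4L above ND5 in all 14 libraries, and ND5 above ND2 in 13. CYTB stood above ND1 in 12 libraries, COX1 above COX3 and ND4 above ND4L in 11, and ND6 above ND4 in 9. COX2 stood above CYTB in 7 of 14 libraries.

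Parts of the mitochondrial chromosome are shared by neighbouring genes (ATP8 with ATP6, ATP6 with COX3, ND4L with ND4, and ND5 with ND6 on the opposite strand), and no source used here says whether the quantification used the strand. The split of reads between such neighbours is therefore uncertain, above all for the short ATP8-length and ND4L-length transcripts. The ratios and the order of these neighbours are given as values of the quantification, not as amounts of separate mRNAs. The ratio of the ATP6-length to the ATP8-length transcript was 9.96 ± 1.13 over the 14 libraries, and that of ND4L to ND4 was 0.946 ± 0.0935. Neither ratio stood apart in a group: ATP6 to ATP8 was 9.83 ± 1.05 in Cl-, 9.91 ± 1.40 in Bl- and 10.1 ± 1.15 in Bl+.

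Summed by complex, the transcripts of complex I (7 of the 13) held 2.10% ± 0.16 of TPM in Cl-, 2.05% ± 0.21 in Bl- and 1.99% ± 0.14 in Bl+. Those of complex IV (3) held 2.50% ± 0.16 in Cl-, 2.39% ± 0.15 in Bl- and 2.62% ± 0.36 in Bl+. CYTB of complex III held 0.381%, 0.359% and 0.355%, and the pair of complex V, ATP8 included, held 0.761%, 0.733% and 0.733% in Cl-, Bl- and Bl+. The ranges of the 3 groups overlapped for every complex.

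The COX1-length transcript was the most abundant of all. It stood at 11748, 11205, 12082 and 10287 TPM in the Cl- libraries, at 10636, 9546, 11630, 10390 and 9787 TPM in Bl- and at 10416, 13103, 9587, 12926 and 15418 TPM in Bl+. The 3 highest values were Bl+ libraries (replicates 11, 13 and 14), but the other 2 Bl+ libraries lay within the range of the other groups. On the log2(TPM + 1) scale the mean of Bl+ was 0.22 above that of Bl- (95% interval -0.03 to 0.48, limma adjusted p = 0.638). The COX3-length transcript, by contrast with its partner in the same enzyme, had nearly equal means of 10000, 9985 and 10153 TPM in Cl-, Bl- and Bl+, and the difference between Bl+ and Bl- was 0.02 (-0.20 to 0.24).

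Ratios between mitochondrial lengths were compared after the values had been seen, and are a description. The ratio of COX1 to ND2 was 7.16 to 9.40 in the 5 Bl+ libraries and 5.55 to 6.91 in the other 9. That of COX1 to ND4L was 4.43 to 6.14 in Bl+ and 3.56 to 4.30 in the others. These were the 2 of 66 pairs among the 12 members in which all Bl+ libraries lay apart from all others. The split of reads between ND4L and ND4 is uncertain, as said above. The ratio of COX1 to ND4 was 4.03 to 5.63 in Bl+ and 3.31 to 4.45 in the others, so these ranges overlapped. In the main fit, none of the 12 reached an unadjusted p under 0.05 in any of the 3 comparisons. Between Bl+ and Bl-, 1 was higher with weighted libraries (2.53% of all transcripts) or without Bl+ replicate 10 (1.53%) or 12 (2.23%). Between Bl+ and Cl-, 1 was lower after quantile normalization (2.77%) or without Bl+ replicate 11 (6.15%). Between Bl- and Cl-, 1 was higher after quantile normalization (3.01%).

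Members also moved together from library to library. With group means removed, the Pearson correlation of log2(TPM + 1) over the 14 libraries had a median of 0.20 over the 4950 pairs of members and ran from -0.91 to 0.99. It was 0.9 or more in 342 pairs. Joining members through pairs at 0.9 or more gave a single large set of 50 transcripts, which held 333 of those pairs, and 4 small sets of 5, 3, 2 and 2 members, while 38 members joined none. These correlations are descriptions: all points share the same 14 libraries, and TPM of a library add up to a fixed total, so that a rise of some transcripts lowers others. The sets were formed from the values and are given no test.

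The large set was made of short transcripts. Its 50 members ran from 292 to 1389 bases with a median of 584, and 92% were under 1000 bases, while no mitochondrial length was among them. Their ranks went from 10 to 95. The median correlation over the 1225 pairs in the set was 0.85, and the lowest was 0.29. Their CV was even, with a median of 8.48% and a highest value of 10.8%. The closest pair was ranks 45 and 49 (576 and 845 bases), at 0.987.

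Library by library, the 50 held 11.1%, 11.4%, 11.6% and 12.9% of TPM in Cl-, 10.96%, 12.1%, 10.8%, 12.1% and 13.2% in Bl-, and 12.5%, 12.5%, 14.01%, 12.1% and 12.9% in Bl+. The highest share was in Bl+ replicate 12 and the lowest in Bl- replicates 7 and 5, and Bl- replicate 9 and Cl- replicate 4 were above every other library of their group. The group means were 11.8% ± 0.76 in Cl-, 11.8% ± 0.96 in Bl- and 12.8% ± 0.73 in Bl+, with overlapping ranges. The other 38 members, by comparison, held 9.95% ± 0.24, 9.84% ± 0.23 and 10.1% ± 0.21.

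The mitochondrial lengths formed sets of their own. Those of ATP6, CYTB, ND1, ND4 and ND2 were joined, with correlations of 0.83 to 0.97 between them, and so were ND4L and ND5, at 0.92. Over all 66 pairs of the 12 the median correlation was 0.68. Against the large set they ran mostly the other way, with a median of -0.34 and values below 0 in 513 of 600 pairs. The share of TPM taken by one set enters the other through the fixed total, and how much of the negative sign this accounts for was not tested.

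The remaining small sets held long transcripts. Ranks 28, 29 and 94 (1835, 2110 and 4431 bases) were joined at 0.85 to 0.95, and ranks 6 and 7 (1140 and 3984 bases) at 0.96. Outside the sets, ranks 23 and 52 correlated at 0.87. The lowest correlation of all was between ranks 52 and 59 (1052 and 2798 bases), at -0.91. Members of equal length were not always alike: ranks 14 and 26, both of 477 bases, kept a ratio of 1.28 to 1.40 in every library and correlated at 0.94, while ranks 39 and 45, both of 576 bases, had ratios of 0.79 to 1.42 and a correlation of 0.38.

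**Figure D2:**
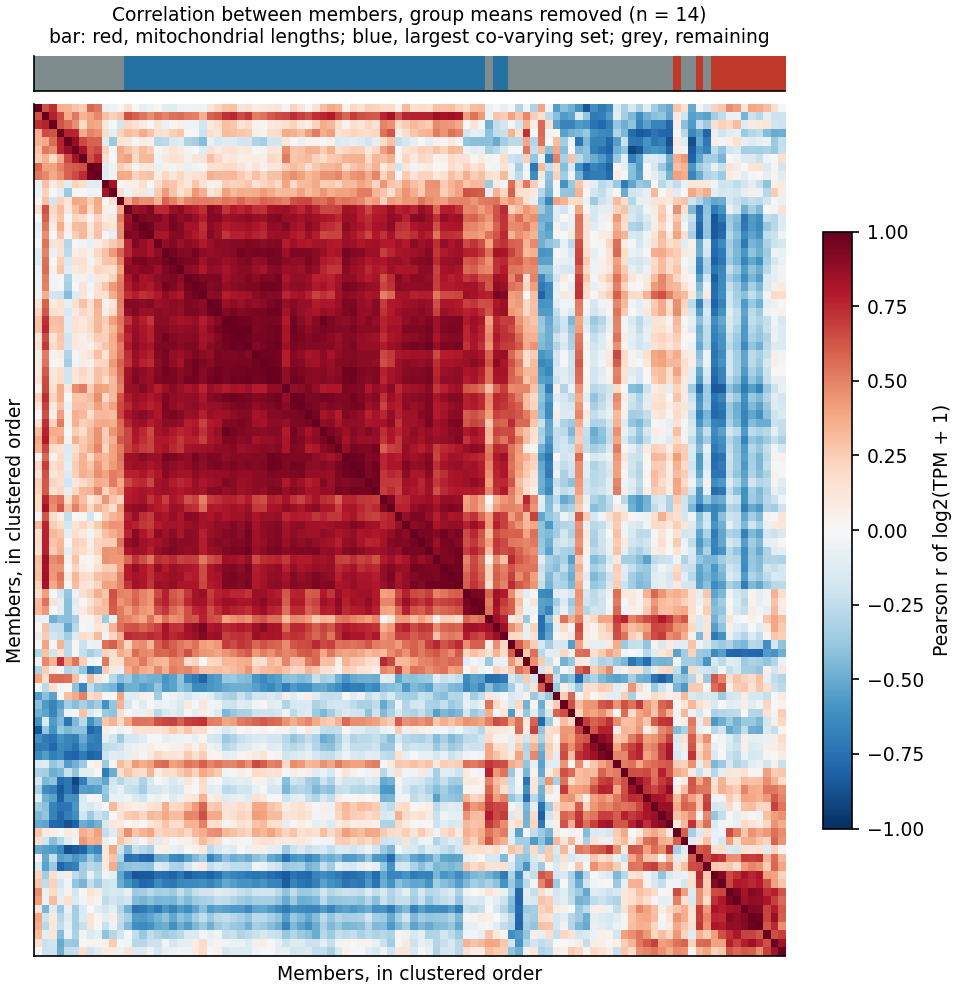
Pearson correlation between the 100 members over 14 libraries after group means were removed, in clustered order, from -1 (blue) to 1 (red). The bar above marks transcripts with mitochondrial lengths (red), the largest co-varying set (blue) and the others (grey). The large red block is the set of 50, with a median correlation of 0.85, and the small block at the lower right holds most of the mitochondrial lengths.

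**Figure D3:**
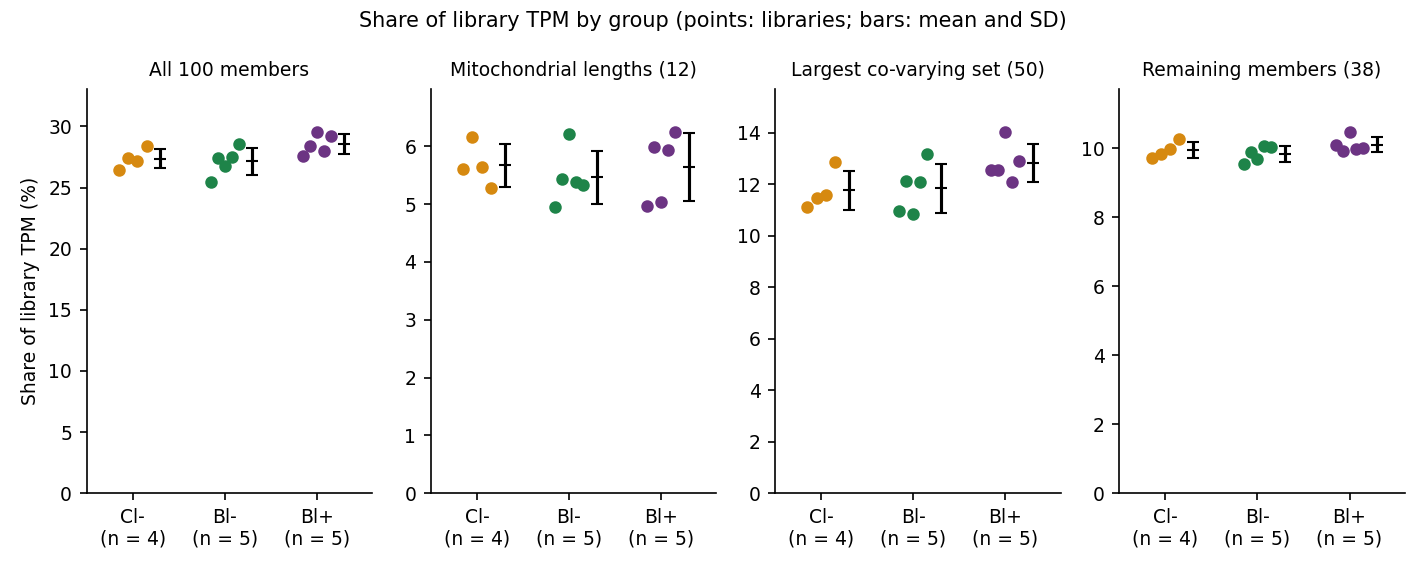
Share of library TPM (percent, axes from 0) for all 100 members, the 12 with mitochondrial lengths, the co-varying set of 50 and the other 38, by group. Points are libraries, and the bars to their right give the mean and SD of the group. The groups overlap in every panel, and the mean for all members is 27.4%, 27.1% and 28.6% in Cl-, Bl- and Bl+.

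To ask whether the most abundant transcripts differed with the fate of the oocyte, the 3 groups were compared by limma on log2(TPM + 1), fitted over all 20488 transcripts. The choice of members used the mean over all libraries and no contrast between groups. The comparisons share groups, so the values of each are given side by side and are not independent of each other.

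Between Bl+ and Bl-, the libraries from oocytes that became blastocysts and those from oocytes that stopped after cleavage, no member passed the adjusted threshold (0 of 100, where 0% of all transcripts passed). The smallest limma adjusted p of a member was 0.424. At an unadjusted p under 0.05, 6 members had a higher mean in Bl+ (1.79% of all transcripts did) and 3 a lower mean (6.71%). The scaling set these counts and their background: quantile normalization, which gives every library the same distribution, gave 2 higher (4.44% of all transcripts) and 8 lower (3.33%), and rescaling by trimmed means gave 6 (3.54%) and 1 (3.96%). They also rested on single libraries. The number higher was 16 without Cl- replicate 4 (2.18% of all transcripts) and 11 without Bl+ replicate 13 (1.59%). Without Bl- replicate 9 it was 28 (1.897%). The number lower was 5 without Bl- replicate 7 (6.59%) or without Bl+ replicate 14 (6.004%), which is below the background. The difference was above 0 for 75 members, against 32.5% of all transcripts. The median difference was 0.10 for the members and -0.07 for all transcripts.

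All 50 members of the large set had a positive difference between Bl+ and Bl-, from 0.04 to 0.20 with a median of 0.12. The 50 were joined because they vary together, so their signs are not separate observations, here or in the other comparisons. Without Bl+ replicate 12, the library with the most highest values, 49 of the 50 stayed positive and the median fell to 0.08. Of the other 38 members, 20 were positive, and of the 12 mitochondrial lengths, 5. The median of the mitochondrial lengths was -0.02, but it was 0.04 after rescaling by trimmed means and -0.10 after quantile normalization. In this comparison they thus had no direction independent of scaling. By length, 46 of the 50 shorter and 29 of the 50 longer members were positive. The scaling also touched these counts. Quantile normalization left 40 of the 50 and 59 of the 100 members positive, where 50.6% of all transcripts were, so the members were then close to the background. Rescaling by trimmed means gave 50 and 82, where 45.9% of all transcripts were positive.

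The largest difference between these groups was that of the transcript ranked 58 (ENSBTAT00000023743.5, 1166 bases). Its values were 3958, 2447, 2798, 2658 and 3653 TPM in Bl+ and 649, 832, 3197, 1072 and 1816 TPM in Bl-. All Bl+ libraries were above 4 of the 5 Bl- libraries, and Bl- replicate 7 lay inside the range of Bl+. The Cl- libraries, at 1600, 1580, 1017 and 2807 TPM, were likewise below Bl+ except for replicate 4. On the log2 scale Bl+ was 1.26 above Bl- (SE 0.372, 95% interval 0.46 to 2.06, limma adjusted p = 0.425) and 0.89 above Cl- (0.05 to 1.74, adjusted p = 0.663), neither past the threshold.

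A shorter transcript, ranked 39 (ENSBTAT00000025311.4, 576 bases), stood at 2215, 3148, 2971, 3372 and 3602 TPM in Bl+. It stood at 2618, 2174, 2054, 2225 and 2693 TPM in Bl- and at 1792, 1777, 1998 and 2523 TPM in Cl-. All but 1 of the Bl+ libraries were above every other library, replicate 10 being the exception. The difference from Bl- was 0.37 (SE 0.135, adjusted p = 0.514), and that from Cl- was 0.59 (SE 0.143, adjusted p = 0.444), the smallest adjusted p among the members in that comparison.

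Lower means in Bl+ were led by the transcript ranked 94 (ENSBTAT00000019232.4, 4431 bases). It was at 1189, 1347, 1142, 1240 and 1333 TPM in Bl+ and at 1916, 1758, 1372, 2287 and 1781 TPM in Bl-. All Bl+ libraries were below all Bl- libraries, which was so for no other member and for 1.36% of all transcripts. The count of such members was 3 without Bl- replicate 7 (567 of 20350 over all transcripts) or Bl+ replicate 14 (457 of 20420). It was 2 after quantile normalization (100 of 20488) and 0 after rescaling by trimmed means (122 of 20454). The difference of rank 94 was -0.53 (SE 0.155, limma adjusted p = 0.424). The transcript ranked 28 (ENSBTAT00000036888.5, 1835 bases), which belongs to the same co-varying set, was at 2618, 2570, 2420, 2611 and 2741 TPM in Bl+ and at 3362, 3607, 2560, 3764 and 3315 TPM in Bl-. Here Bl- replicate 7 lay among the Bl+ libraries, and the difference was -0.35 (SE 0.126, adjusted p = 0.510).

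In the other direction, all Bl+ libraries were above all Bl- libraries for 1 member, rank 5 (1740 bases), against 0.337% of all transcripts. This count was 14 without Bl- replicate 9 (137 of 20399 over all transcripts). Leaving out Bl+ replicate 13 (97 of 20406) or 14 (157 of 20420) gave 3. There were 2 without Bl- replicate 6 or 7 or Bl+ replicate 10 (99 to 221 over all transcripts). Quantile normalization left 0 (230 of 20488). Rank 5 was at 5514, 5646, 5427, 5527 and 5723 TPM in Bl+ and at 5117, 5284, 4879, 5418 and 5402 TPM in Bl-. The lowest Bl+ value was just above the highest Bl- value. The difference was 0.09 (95% interval -0.04 to 0.23).

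**Figure D4:**
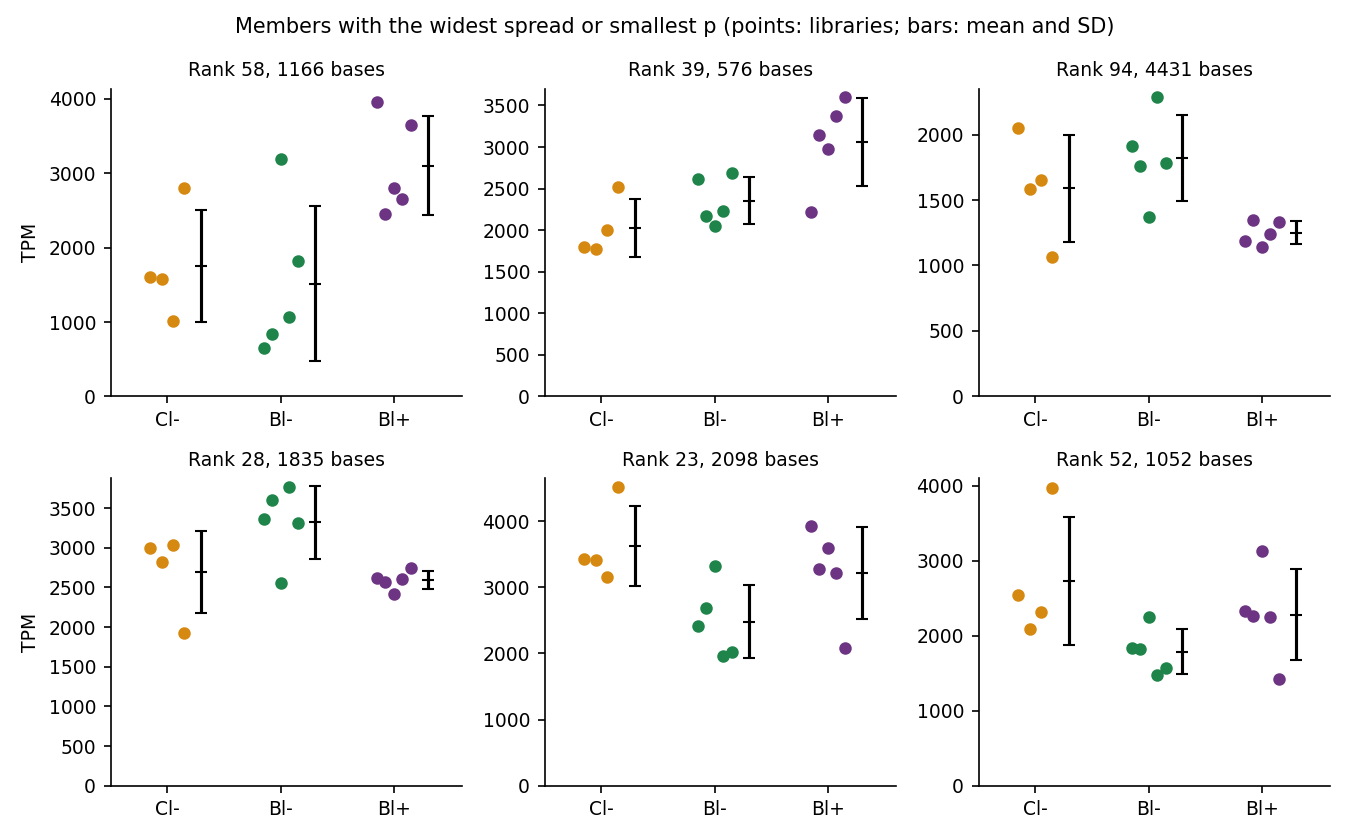
TPM (axes from 0) of 6 members by group: ranks 58, 39, 94, 28, 23 and 52. Points are libraries (Cl- 4, Bl- 5, Bl+ 5), and the bars give the mean and SD. Rank 58 runs from 649 to 3958 TPM, and the Bl+ libraries of rank 94 lie below all Bl- libraries.

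Between Bl+ and Cl-, the libraries from oocytes that never cleaved, again no member passed the adjusted threshold (0 of 100, where 0% of all transcripts passed), and the smallest limma adjusted p was 0.444. At an unadjusted p under 0.05, 8 members had a higher mean in Bl+ (2.19% of all transcripts) and 2 a lower mean (5.27%). Quantile normalization gave 4 higher (4.18% of all transcripts) and 4 lower (2.77%), and rescaling by trimmed means gave 4 (3.15%) and 1 (3.31%). The number higher was 32 without Cl- replicate 4 (3.14% of all transcripts). It was 2 to 5 without Cl- replicate 1, 2 or 3, Bl- replicate 5, 6 or 8, or Bl+ replicate 12 or 14 (1.55% to 2.20%). The number lower was 1 without Cl- replicate 3 (3.77%), Bl+ replicate 10 (7.81%) or Bl+ replicate 13 (5.52%), and 0 without Bl+ replicate 14 (3.90%). The difference was above 0 for 75 members (31.9% of all transcripts), with a median of 0.09 for the members and -0.08 for all. All 50 of the large set were positive, from 0.00 to 0.21 with a median of 0.12. Of them, 47 were positive without Bl+ replicate 12, and all 50 were without Cl- replicate 4, with a median of 0.18. After quantile normalization 45 of these 50 and 60 of all members were positive, where 50.2% of all transcripts were. After rescaling by trimmed means the counts were 50 and 81, where 44.04% of all transcripts were positive. Of the 12 mitochondrial lengths 4 were positive, 5 with trimmed means and 2 with quantile normalization. Their medians were -0.08, -0.02 and -0.14.

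The smallest p on the higher side belonged to rank 39, given above, and rank 85 (630 bases), while the largest difference was that of rank 58. Rank 85 stood at 1896, 1629, 2001, 1837 and 1830 TPM in Bl+ and at 1404, 1737, 1599 and 1216 TPM in Cl-. Only Cl- replicate 2 reached the Bl+ range, and the difference was 0.31 (SE 0.105, adjusted p = 0.600). On the lower side, rank 97 (1554 bases) was at 1023, 1208, 1606, 1639 and 992 TPM in Bl+ and at 1733, 1623, 1996 and 1699 TPM in Cl-. Its Bl+ libraries were low in 3 and close to Cl- in 2, and the difference was -0.48 (SE 0.185, adjusted p = 0.650).

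Rank 4 (855 bases) was higher in Cl-, at 6681, 6051, 6816 and 8087 TPM, than in most other libraries. It was at 5536, 7326, 5727, 5118 and 4457 TPM in Bl+ and at 5433, 5659, 5204, 5544 and 5958 TPM in Bl-. All Bl- libraries were below all Cl- libraries, while Bl+ replicate 11 lay among them. The difference was -0.31 (SE 0.124) both for Bl+ and for Bl- against Cl-, with adjusted p = 0.662 and 0.784.

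All Bl+ libraries were above all Cl- libraries for 3 members (0.581% of all transcripts), ranks 12, 15 and 90, all in the large set. The count rested on Cl- replicate 4, without which it was 40 (515 of 20366 over all transcripts). It was 8 without Bl+ replicate 13 (167 of 20406). It was 5 without Cl- replicate 3 (196 of 20384) or Bl+ replicate 10 (217 of 20323) or 11 (239 of 20356). It was 2 after quantile normalization (247 of 20488) and 1 after rescaling by trimmed means (179 of 20454). Rank 12, the shortest member, was at 4698, 4469, 5317, 4458 and 4685 TPM in Bl+ and at 4087, 4200, 4078 and 4444 TPM in Cl-. The gap was small, and the difference was 0.17 (95% interval -0.01 to 0.34). Rank 15 (509 bases) differed by 0.18 (0.00 to 0.36) and rank 90 by 0.09 (-0.02 to 0.20). No member had all Bl+ libraries below all Cl- libraries (1.72% of all transcripts). However, 3 had without Cl- replicate 4 (1098 of 20366 over all transcripts) and 2 after quantile normalization (168 of 20488). Leaving out Cl- replicate 2 (770 of 20393) or Bl+ replicate 11 (598 of 20356) or 13 (631 of 20406) gave 1.

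Between Bl- and Cl-, both from oocytes that gave no blastocyst, no member passed the adjusted threshold (0 of 100, where 0.00488% of all transcripts passed, that is 1 transcript). The smallest limma adjusted p of a member was 0.712. At an unadjusted p under 0.05, 2 members were higher in Bl- (3.01% of all transcripts) and 4 lower (3.09%), which is near the background. Quantile normalization gave 3 higher (3.01% of all transcripts) and 5 lower (3.62%), and rescaling by trimmed means gave 0 (2.41%) and 2 (3.48%). The number higher was 4 without Cl- replicate 2 (3.07% of all transcripts) or Bl+ replicate 14 (3.38%) and 0 without Bl- replicate 8 (2.45%). It was 1 without Cl- replicate 4 or Bl- replicate 5, 6 or 9 (2.13% to 2.81%). The number lower was 1 without Cl- replicate 4 (2.17%) and 6 without Bl- replicate 7 (4.14%). The difference was above 0 for 52 members, against 49.5% of all transcripts, and its median was 0.01 for the members and 0.00 for all. Of the 12 mitochondrial lengths 1 was positive, 1 with trimmed means and 3 with quantile normalization. Their medians were -0.07, -0.07 and -0.04. Without Cl- replicate 2 or Bl- replicate 5, 4 of the 12 were positive. In the large set 29 of 50 were positive, with a median of 0.01, and this rested on single libraries: 44 were positive without Cl- replicate 4 (median 0.06), 13 without Bl- replicate 9 (median -0.03) and 19 without Cl- replicate 1 (median -0.02).

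Among the members lower in Bl- were the variable ranks 23 and 52. Rank 23 (2098 bases) was at 3430, 3413, 3158 and 4520 TPM in Cl- and at 2413, 2681, 3326, 1969 and 2020 TPM in Bl-. Bl- replicate 7 was the one Bl- library inside the Cl- range, and the difference was -0.56 (SE 0.188, adjusted p = 0.712). Rank 52 was at 2539, 2082, 2320 and 3971 TPM in Cl- and at 1837, 1820, 2245, 1472 and 1564 TPM in Bl-. Here too Bl- replicate 7 alone overlapped, Cl- replicate 4 was far above the rest, and the difference was -0.58 (SE 0.215, adjusted p = 0.764). On the higher side were rank 86 (1460 bases), by 0.37 (SE 0.153, adjusted p = 0.792), and rank 28, by 0.31 (SE 0.134, adjusted p = 0.792). Without Cl- replicate 4 these differences were 0.24 and 0.16, and that of rank 52 was -0.38. Rank 86 was at 1694, 1764, 1850, 2225 and 1817 TPM in Bl- and at 1424, 1880, 1471 and 1096 TPM in Cl-, of which replicate 2 overlapped. Rank 4 was the only member whose Bl- libraries were all below all Cl- libraries (1.15% of all transcripts), and no member had all above (1.24%). Without Bl- replicate 7 there were 7 members below and 2 above (604 and 496 of 20350 over all transcripts). Without Cl- replicate 2 there were 3 and 3 (563 and 504 of 20393). Without Cl- replicate 3 there were 3 below (395 of 20384), and without Bl- replicate 6 there were 2 below (312 of 20371). Without Cl- replicate 4 there was 1 above (479 of 20366). Rescaling by trimmed means left none below (352 of 20454).

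The precision of the fit shows how large a difference could have been missed. A change of 2-fold in either direction lay outside the 95% interval for 99 members between Bl+ and Bl- (89.8% of all transcripts), for 99 between Bl+ and Cl- (88.1%) and for 98 between Bl- and Cl- (90.1%). A change of 1.5-fold lay outside it for 88, 92 and 89 members. The exceptions at 2-fold were rank 58 in all 3 comparisons and rank 52 between Bl- and Cl-. For these 2 transcripts a difference of 2-fold or more remained within the interval.

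**Figure D5:**
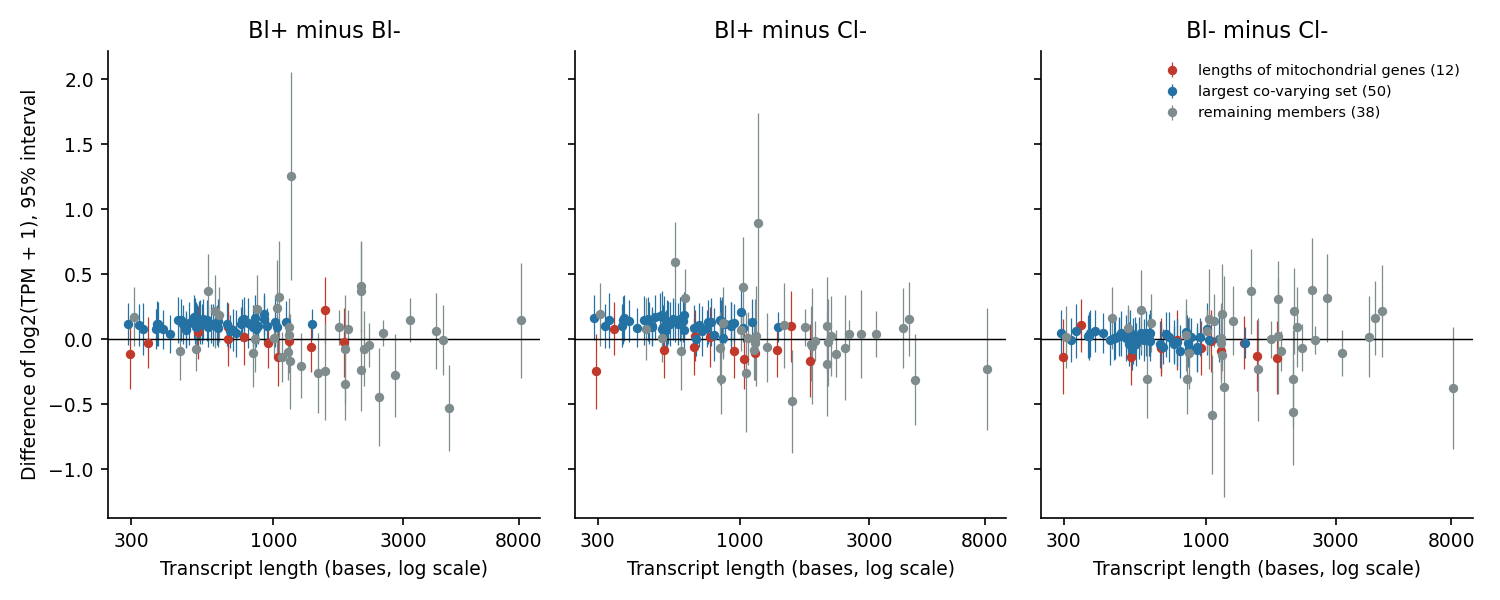
Difference of log2(TPM + 1) with its 95% interval (limma, 3 panels) against transcript length in bases (log axis), for the 100 members. Red points are the 12 mitochondrial lengths, blue the co-varying set of 50 and grey the other 38. The blue points lie above 0 in both comparisons with Bl+ and around 0 between Bl- and Cl-, and the grey point with the widest interval is rank 58.

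In the main fit, 20 members reached an unadjusted p under 0.05 in at least 1 comparison. Of these, 6 were in the large set, none had a mitochondrial length and 14 were among the other 38. The share of all transcripts that did so was not counted, so the 20 have no background beside them.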

How the data were processed

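RNA of 14 libraries of pooled cumulus cells was made into stranded poly-A libraries and sequenced as paired reads, per the labels' protocols. Per the submitters' processing notes, the authors ran FastQC, fastp and kallisto, and the deposited values are TPM per Ensembl transcript. Not given in the sources used here are the versions, the transcript release, the genome build, the use of strand, and whether PCR copies were collapsed by the molecular identifiers of the adaptors. Poly-A selection leaves RNA without a tail mostly unmeasured, and kallisto divides reads among transcripts that share sequence. The deposited TPM summed to 1000000 in each library, and 1 column of effective lengths served all 14. Depth was read approximately from the steps of low values (54.3% to 66.1% of them within 0.03 of a whole number of fragments), too few for a count test, and fragments may include PCR copies.

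Members were ranked by mean TPM, and ranks, shares and correlations are descriptions. The test was limma (version 3.58.1, under R 4.3.3), run on log2(TPM + 1) of transcripts that reached 1 TPM in 4 or more libraries. One fit with a variance trend on intensity covered the 3 groups. Two-sided p-values were adjusted by Benjamini-Hochberg over the 20488 transcripts of each of the 3 comparisons, with a threshold of 0.05. The scale understates the change of low transcripts. The procedure was also run on simulated data, and how many known changes it recovered is not given here. Named members were the 10 highest, 3 on either side of the threshold, the 3 highest and 3 lowest by CV, the 2 with the smallest p in each direction of each comparison, the 2 shortest and 2 longest, and the 3 with the widest range of rank. Others named were chosen after their values were seen: members whose groups did not overlap, members of the co-varying sets and same-length pairs. Members and lists were chosen with earlier results of these data known. The planned gene lists and cell type markers could not be applied without gene names. Alternatives were other pseudocounts, filters, scalings, limma settings and selections of members, and leaving out each library.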

Additional observations from a re-analysis of the deposited data

Results flagged for a closer look

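In 4 of 96 combinations of a measure and a group, 1 library stood apart from the rest of its group by more than Dixon's 95% limit. The combinations were those of the named members and of the summed TPM shares of the members and of the mitochondrial lengths, and chance alone sets apart about 1 in 20. The ATP6-length transcript (rank 3) was at 7702 TPM in Cl- replicate 2 and at 6616 to 6661 TPM in the other Cl- libraries. Rank 12, the shortest member, was at 5317 TPM in Bl+ replicate 12 and at 4458 to 4698 TPM in the other Bl+ libraries. The ND4L-length transcript (rank 35) was at 3268 TPM in Bl- replicate 7 and at 2334 to 2541 TPM in the other Bl- libraries. Rank 98 (3182 bases) was at 1810 TPM in Cl- replicate 4 and at 1406 to 1466 TPM in the other Cl- libraries. All 4 were high values, each in a different library.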

How the results depend on the processing

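No member passed the adjusted threshold under any of the 24 alternatives run for each comparison, and the smallest adjusted p was 0.170 for Bl+ with Bl-, 0.175 for Bl+ with Cl- and 0.353 for Bl- with Cl-. The 12 differences named by p kept their direction under all of these. Leaving out a library gave shares of TPM of 27.0% to 27.7% in Cl-, 26.8% to 27.6% in Bl- and 28.3% to 28.8% in Bl+, and 99 or 100 of the members were chosen again. Selection by median TPM or by the mean of group means chose the same 100. Selection by share of fragments had 46 members in common, a median length of 2227.5 bases, TPM shares of 18.9%, 18.4% and 19.0% (Cl-, Bl-, Bl+) and fragment shares of 20.3%, 19.9% and 20.7%. With 50 members the TPM shares were 18.2%, 17.9% and 19.0% and the fragment shares 9.43%, 8.99% and 9.83%. With 200 they were 37.3%, 37.1% and 38.8%, and 22.97%, 22.8% and 24.1%. Dividing fragments by annotated in place of effective length, an alternative added after seeing the data, kept 93 members, with TPM shares of 24.7%, 24.6% and 25.8% and a fragment share of 15.9% in Bl+, so the share rests partly on how effective lengths treat short transcripts. Rescaling by trimmed means, also added for this count, gave 975 pairs of members at a correlation of 0.9 or more in place of 342, and leaving out a library gave 261 to 484, so the co-varying sets have no sharp edge. Why was not tested. No paired analysis was possible because the groups share no replicate numbers. Depth did not limit these abundant transcripts, whose precision was set by 4 or 5 libraries to a group.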
